A study of Mus musculus with 12 samples.

Results

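Mitochondrial ribosomal proteins are the protein subunits of the ribosome that works inside mitochondria. The genes described here are those whose annotated symbol starts with Mrpl or Mrps followed by a digit, where Mrps stands for the small and Mrpl for the large subunit. Each gene was read from the probe set that names it alone and has the highest mean over the arrays. This gave 77 of the 19938 genes on the arrays, 29 of the small and 48 of the large subunit, chosen by name and not by any measured value. All 77 also lay above the filter on low signal that left 14993 genes for testing. Mrpl53 is named only on a probe set shared with Ccdc142 and was left out.

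The samples were plasma cells of donor origin that bind the hapten NP, sorted from mouse bone marrow 7 days into a recall response. Splenocytes of Zbtb32 +/+ (wild-type) or Zbtb32-/- donors, both immune to NP-CGG and CD45.2, had been given to CD45.1 recipients, which were then challenged with NP-CGG, so transfer, recipient and challenge are shared by both groups. The sort took NP+ cells that were CD138+ and CD45.2+ and that lacked B220, CD45.1, CD11b and Ly6g. Each genotype has 6 arrays, biological replicates by the series text. The age of the mice is not given, and neither is whether Zbtb32 was lost in all cells. The title of the series names memory B cells, but every sample is labelled as plasma cells, which was followed. All 12 plasma cell markers were measured, and their list averaged 10.80 ± 0.30 on the wild-type arrays and 10.85 ± 0.25 on the Zbtb32-/- arrays (log2 value, SD, n = 6 each).

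The mitochondrial ribosome is built from RNAs encoded by mitochondrial DNA and from proteins that are all encoded in the nucleus, made in the cytosol and imported. It translates only the few membrane proteins of the respiratory chain and of ATP synthase that mitochondrial DNA encodes. Many of its proteins descend from those of the bacterial ribosome, and others have no bacterial counterpart and were added in the line that led to mitochondria. Nuclear genes for mitochondrial proteins are known targets of the transcription factors NRF1, GABP (an ETS factor also called NRF2), YY1 and, through the E-box, Myc. Plasma cells make and secrete antibody at a high rate, which takes much energy. Zbtb32 encodes a zinc finger repressor of the BTB family.

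The proximal promoters of 5 members are printed, picked by values described below, although no member passed the test between the genotypes. They are the members of smallest p between the genotypes in each subunit that have a promoter entry, together with Mrps26, which differed between the replicate sets. Each line gives the 250 bases before the transcript start from the RefSeq table of build GRCm38.p6, written 5′ to 3′ along the gene's strand, with the ETS match (CCGGAAGT on either strand) in capitals. They are, in order, chr13:99344536-99344785 on the plus strand, chr6:92184024-92184273 on the minus strand, chr2:130563507-130563756 on the plus strand, chr6:125191950-125192199 on the plus strand and chr17:12916092-12916341 on the minus strand.
Mrps27: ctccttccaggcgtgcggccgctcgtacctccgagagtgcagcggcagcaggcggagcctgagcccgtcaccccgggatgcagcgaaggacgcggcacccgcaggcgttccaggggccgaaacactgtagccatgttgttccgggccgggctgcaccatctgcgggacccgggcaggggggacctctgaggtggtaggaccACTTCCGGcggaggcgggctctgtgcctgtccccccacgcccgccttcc
Mrps25: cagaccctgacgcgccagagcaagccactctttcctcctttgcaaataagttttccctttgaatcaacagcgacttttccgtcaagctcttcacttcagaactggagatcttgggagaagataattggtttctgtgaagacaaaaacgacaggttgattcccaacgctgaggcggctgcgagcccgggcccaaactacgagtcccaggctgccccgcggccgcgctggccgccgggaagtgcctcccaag
Mrps26: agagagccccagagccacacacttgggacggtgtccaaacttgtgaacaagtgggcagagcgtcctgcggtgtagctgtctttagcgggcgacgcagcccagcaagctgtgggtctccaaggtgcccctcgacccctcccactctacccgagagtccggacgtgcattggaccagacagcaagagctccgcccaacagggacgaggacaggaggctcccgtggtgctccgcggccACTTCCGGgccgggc
Mrpl51: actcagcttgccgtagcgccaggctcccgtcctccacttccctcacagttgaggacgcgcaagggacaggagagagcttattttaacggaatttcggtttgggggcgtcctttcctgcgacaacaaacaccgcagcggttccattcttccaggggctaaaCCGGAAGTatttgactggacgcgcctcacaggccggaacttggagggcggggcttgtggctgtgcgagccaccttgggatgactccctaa
Mrpl18: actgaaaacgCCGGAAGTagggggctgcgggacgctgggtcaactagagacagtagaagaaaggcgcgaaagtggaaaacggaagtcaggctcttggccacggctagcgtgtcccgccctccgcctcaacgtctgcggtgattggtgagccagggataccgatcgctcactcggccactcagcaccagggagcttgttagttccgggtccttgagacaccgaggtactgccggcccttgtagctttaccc
The ETS match begins 49 bases before the start in Mrps27, 15 in Mrps26, 90 in Mrpl51 and 240 in Mrpl18. The Mrps25 window holds none of the motifs searched.

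Promoter windows of 300 bases, from 250 before to 50 after the start, were found for 68 of the 77 members, and 3 of these have several windows. The ETS letters CCGGAAGT were present in 12 of the 68 (17.6%), against 7.44% of the 11852 tested genes with a window and 4.31% of all 27025 genes. The YY1 letters AAGATGGC were also present in 12 members (17.6%), against 4.47% of the tested genes. In Mrps7, Mrps18a, Mrps24, Mrps27, Mrpl35, Mrpl37, Mrpl42 and Mrpl49 this match lay on the gene's own strand, 12 to 37 bases after the start. The NRF1 letters GCGCATGC were present in 8 members (11.8% against 5.08%), 7 of the large subunit and Mrps18b of the small. The E-box CACGTG was present in 5 (7.35% against 10.9%). At least one of the 4 motifs was found in 31 members (45.6%), against 24.6% of the tested genes. Both strands were searched, the E-box reads the same on both, and NRF1 matches on opposite strands overlap in Mrpl9, Mrpl32 and Mrpl39. The Zbtb32-/- minus wild-type differences (log2) had a median of 0.33 over the 12 members with the ETS letters and 0.13 over the others. The medians with and without the letters were 0.07 and 0.15 for NRF1, 0.11 and 0.16 for YY1, and 0.16 and 0.14 for the E-box. These are descriptions of the letters in the windows, given without a test.

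No member passed the test between the genotypes, and 70 of the 77 had a positive difference. In the fit over all genes (limma, Benjamini-Hochberg over the 14993 tested genes, threshold 0.05), 0 members and 0 genes were called, which is 0% of the genes tested, and the smallest adjusted p of a member was 0.933. The differences of the members, in log2 units as Zbtb32-/- minus wild type, ran from -0.16 to 0.82 with a median of 0.16, where the median of all tested genes was 0.012. Positive differences made up 90.9% of the members and 52.9% of all tested genes. The share among genes depended on signal. A filter at the median kept 9887 genes and all 77 members, and 64.4% of those genes were positive, with a median of 0.065. Members share the arrays and vary together on them, so these 70 genes are not 70 separate observations. At an unadjusted p under 0.05, 7 members had a positive difference, against 2.83% of all genes, and 0 had a negative one, against 1.45%. The count of 7, beside 425 of the 14993 genes, became 2 beside 296 of them without Zbtb32-/- replicate 3. Without wild-type replicate 3 it was 16 beside 954. The 6 wild-type and 6 Zbtb32-/- values were fully separate in 0 members and in 23 of all genes (0.153%). The 95% interval of the difference excluded a 2-fold change for 75 of the 77, the exceptions being Mrps27 and Mrps31, and a 1.5-fold change for 52. Over the 14993 tested genes these counts were 14294 and 11000.

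**Figure D1:**
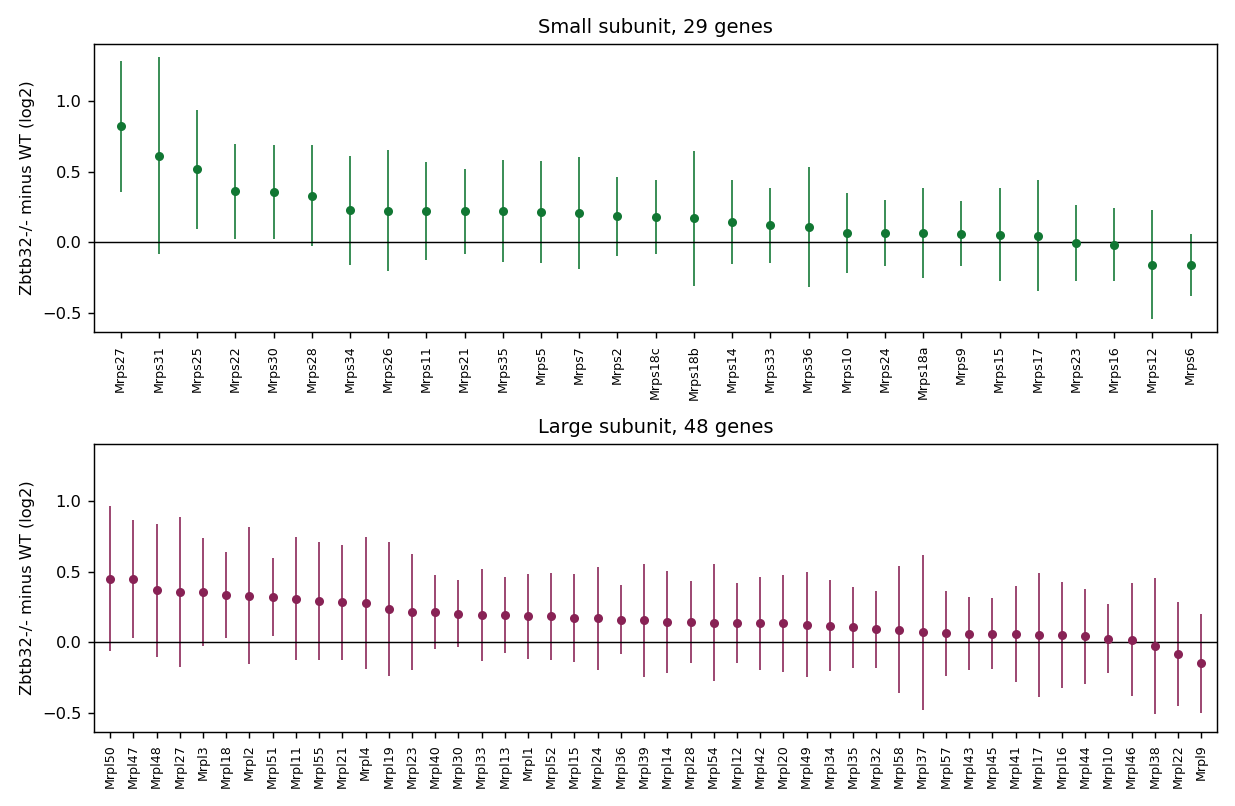
Difference between the genotypes for every member (vertical axis: Zbtb32-/- minus wild type, WT, in log2 units; points: estimates, lines: 95% intervals from limma), ordered by size within the small subunit (29 genes, upper panel) and the large subunit (48 genes, lower panel). Points lie above 0 for 25 small-subunit and 45 large-subunit genes, and most intervals cross 0.

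In the small subunit 25 of 29 differences were positive, with a median of 0.18, and 4 had an unadjusted p under 0.05. The widest difference was that of Mrps27, a protein with pentatricopeptide repeats that has no bacterial counterpart. Its log2 values were 5.72 at the lowest, 6.10 at the median and 6.89 at the highest in wild-type cells, and 6.76, 6.98 and 7.62 in Zbtb32-/- cells. Wild-type replicate 3 alone reached into the Zbtb32-/- range. The difference was 0.82 (SE 0.22, 95% interval 0.36 to 1.29, 1.77-fold, unadjusted p = 0.00198 and adjusted p = 0.933 with limma), and all 6 Zbtb32-/- arrays were above the wild-type mean. In replicates 1 to 3 the difference was 0.47, and in replicates 4 to 6 it was 1.18.

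Mrps25, also without a bacterial counterpart, had values of 6.71, 7.32 and 8.08 (lowest, median, highest log2) in wild-type cells and 7.54, 7.85 and 8.01 in Zbtb32-/- cells. The groups overlapped, since wild-type replicate 3 was the highest array of all and wild-type replicate 1, at 7.55, reached the lowest Zbtb32-/- value. The difference was 0.52 (SE 0.20, unadjusted p = 0.0205), and it was similar over replicates 1 to 3, at 0.48, and over replicates 4 to 6, at 0.56.

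Mrps22, a mitochondria-specific protein that is mutated in an inherited deficiency of the respiratory chain, had a difference of 0.36 (SE 0.16), with wild-type log2 values from 7.59 to 8.47 and Zbtb32-/- values from 8.04 to 8.52. Wild-type replicate 3, at 8.47, was again the only wild-type array inside the Zbtb32-/- range. Mrps30, which carries a small-subunit name but sits in the large subunit, also had a difference of 0.36 (SE 0.16), with a median of 7.30 in wild-type and 7.72 in Zbtb32-/- cells. Mrps28 differed by 0.33 (SE 0.17), and its unadjusted p was 0.0681.

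Mrps31 had the widest spread of the small subunit within a genotype. Its wild-type log2 values were 7.382, 5.997, 8.001, 7.203, 7.802 and 5.985 for replicates 1 to 6, while the Zbtb32-/- values lay between 7.41 and 7.98. Wild-type replicates 2 and 6 were far below the other wild-type arrays, which lay in or near the Zbtb32-/- range. The difference was 0.61 (SE 0.33, 95% interval -0.09 to 1.31), or 0.40 without wild-type replicate 6.

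The negative differences of the small subunit were small. Mrps6, a counterpart of bacterial S6, differed by -0.16 (SE 0.10), with wild-type values in a narrow range of 7.06 to 7.23. Mrps12, a counterpart of S12 of the decoding centre, differed by -0.16 (SE 0.18), and Mrps16 by -0.02 (SE 0.12). The direction of Mrps16 turned under median centring of the arrays, to 0.0068. The fourth negative member was Mrps23, named here after its value was seen, at -0.0044.

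Mammals have 3 paralogues of bacterial S18, of which Mrps18a is built into the large subunit and the other 2 into the small subunit. Their differences were 0.07 (SE 0.15) for Mrps18a, 0.17 (SE 0.22) for Mrps18b and 0.18 (SE 0.12) for Mrps18c. The 95% intervals of all 3 include 0.

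**Figure D2:**
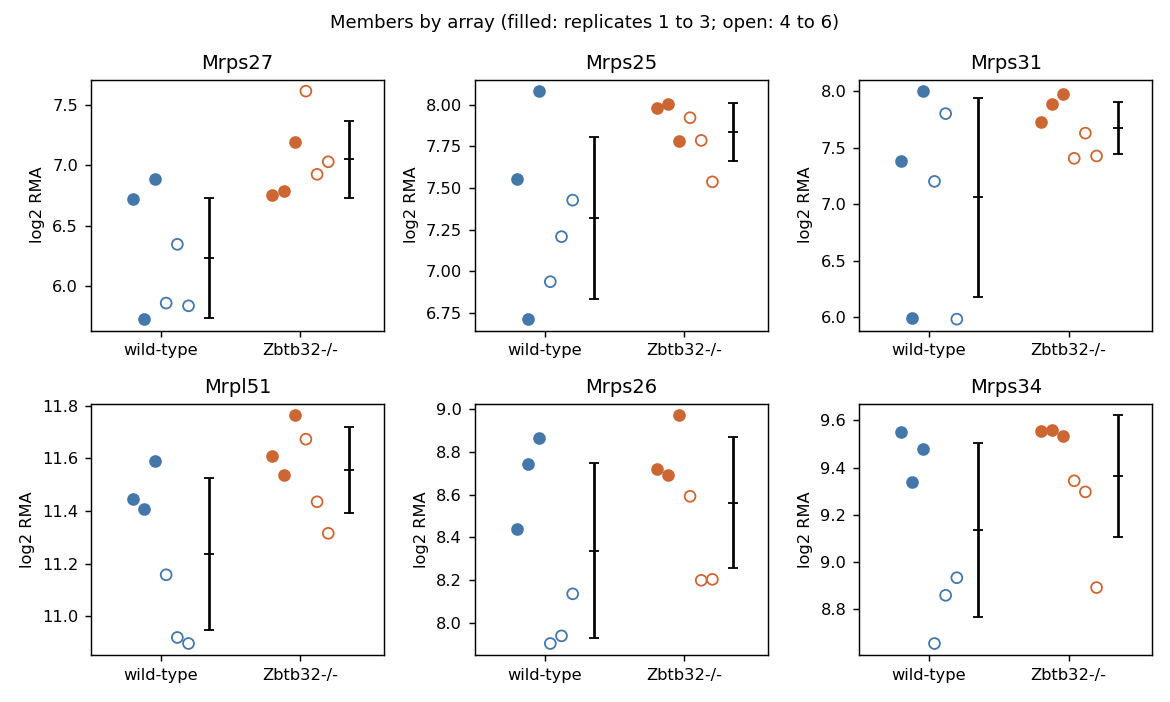
Log2 values of Mrps27, Mrps25, Mrps31, Mrpl51, Mrps26 and Mrps34 on each array (vertical axis: log2 RMA value, a separate scale for each gene; blue: wild type, orange: Zbtb32-/-; filled: replicates 1 to 3, open: replicates 4 to 6; bars: mean and SD over 6 arrays). In Mrps27 only wild-type replicate 3 enters the Zbtb32-/- range, and in Mrps26 and Mrps34 the open points lie mostly below the filled ones.

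In the large subunit 45 of 48 differences were positive, with a median of 0.15, and 3 had an unadjusted p under 0.05. Mrpl51, a mitochondria-specific protein, had log2 values of 10.90, 11.28 and 11.59 (lowest, median, highest) in wild-type and 11.31, 11.57 and 11.76 in Zbtb32-/- cells. Each of the 6 Zbtb32-/- values exceeded the mean of the wild type, but the groups overlapped. The difference was 0.32 (SE 0.13, unadjusted p = 0.0259), and it was 0.10 (SE 0.27) at the second probe set that names this gene.

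Mrpl18, a counterpart of bacterial L18, differed by 0.33 (SE 0.14). Its wild-type log2 values were 8.76, 8.97 and 9.44 (lowest, median, highest), and 5 Zbtb32-/- arrays lay between 9.37 and 9.56, with replicate 6 apart at 8.98. Mrpl47, a counterpart of L29, differed by 0.45 (SE 0.20), and its second probe set gave 0.13 (SE 0.16). Mrpl50 differed by 0.45 (SE 0.24) and Mrpl3, a counterpart of L3 near the peptidyl transferase centre, by 0.36 (SE 0.18, or 0.22 without wild-type replicate 4), both with an unadjusted p above 0.05. In the 8 members with a pair of single-gene probe sets, both sets gave a difference of the same sign. Gene copies elsewhere in the genome can share probes with a member, and the probe sequences were not used here.

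Mrpl2 and Mrpl27, counterparts of bacterial L2 and L27, had the widest spread of the large subunit within a genotype. Mrpl27 was at 8.31 in wild-type replicate 2 and at 9.93 in wild-type replicate 6, and its difference was 0.36 (SE 0.25), or 0.16 without wild-type replicate 2. Mrpl2 was lowest in wild-type replicate 6, at 8.06, and its difference was 0.33 (SE 0.23), or 0.14 without that array. The negative differences of the large subunit were those of Mrpl9 (-0.15, SE 0.16), of Mrpl22, a counterpart of L22 that lines the exit tunnel (-0.08, SE 0.17), and of Mrpl38 (-0.03, SE 0.23). The sign of Mrpl22 turned with array weights, to 0.04.

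Members with a bacterial counterpart and members without one were also set side by side. In the small subunit 13 of 16 with a counterpart were positive, with a median of 0.11 and 0 at an unadjusted p under 0.05, and 8 of 9 without one, with a median of 0.23 and 3 at that level (Mrps27, Mrps25 and Mrps22). In the large subunit the order of the medians was the opposite, at 0.17 over 29 members with a counterpart (27 positive) and 0.12 over 19 without one (18 positive). Mrps18a, Mrps18b, Mrps30 and Mrps36 were put in neither list. Of the S18 paralogues only Mrps18c is therefore counted as having a counterpart. Mrps30, with an unadjusted p of 0.0389 with limma, enters neither count.

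The subunit means differed between the genotypes by about the SD between arrays. The mean over the 77 members was 8.67 ± 0.19 in wild-type and 8.85 ± 0.18 in Zbtb32-/- cells (mean and SD of 6 arrays, log2), which is 0.17 (SE 0.11) apart. The small subunit went from 8.45 ± 0.19 to 8.64 ± 0.17, a difference of 0.19 (SE 0.10), and the large subunit from 8.80 ± 0.19 to 8.97 ± 0.19, a difference of 0.17 (SE 0.11). The mean of the small minus that of the large subunit, in which a shift common to both cancels, was -0.347 ± 0.050 in wild-type and -0.324 ± 0.031 in Zbtb32-/- cells and differed by 0.023 (SE 0.024). The level of this contrast depends on the probes, and its variation between arrays was small beside that of either subunit. In these bulk samples, fewer cells of a type and less RNA per cell cannot be told apart. Mrps36, now known as a component of a tricarboxylic acid cycle enzyme and not of the ribosome, was left out and Mrps18a and Mrps30 were moved to the large subunit in an alternative count, which gave 0.190 for the small and 0.167 for the large subunit.

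**Figure D3:**
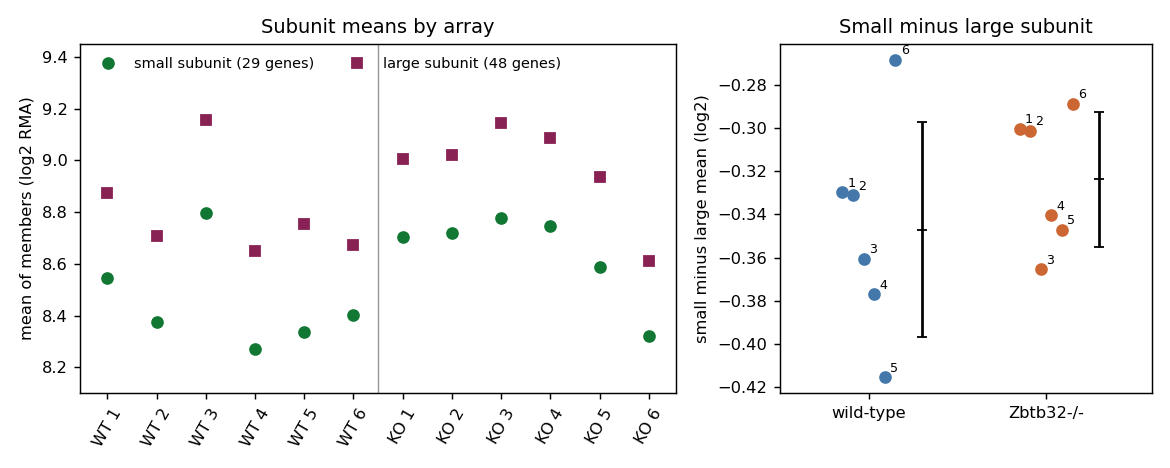
Left, mean of the small-subunit (circles, 29 genes) and large-subunit (squares, 48 genes) members on each of the 12 arrays (log2 RMA value; WT: wild type, KO: Zbtb32-/-, with replicate numbers). Right, small minus large subunit mean per array with the mean and SD over 6 arrays. Both subunits are high in wild-type replicate 3 and low in wild-type replicate 4 and Zbtb32-/- replicate 6, and the contrast of the subunits overlaps between the genotypes.

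The arrays of each genotype were not alike. The mean over the 77 members was 8.75, 8.58, 9.02, 8.51, 8.60 and 8.57 in wild-type replicates 1 to 6. In Zbtb32-/- replicates 1 to 6 it was 8.89, 8.91, 9.01, 8.96, 8.81 and 8.501. Wild-type replicate 3 was thus the highest and Zbtb32-/- replicate 6 the lowest of all 12 arrays, each against the direction of its group. In wild-type replicate 3, 52 of the 77 members were among their own 3 highest arrays and 0 among their 3 lowest. In Zbtb32-/- replicate 6, 52 members were among their 3 lowest arrays and 69 lay below their own mean, of the small subunit 26 of 29 and of the large subunit 43 of 48. Wild-type replicate 4 was similar, with 65 members below their own mean.

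**Figure D4:**
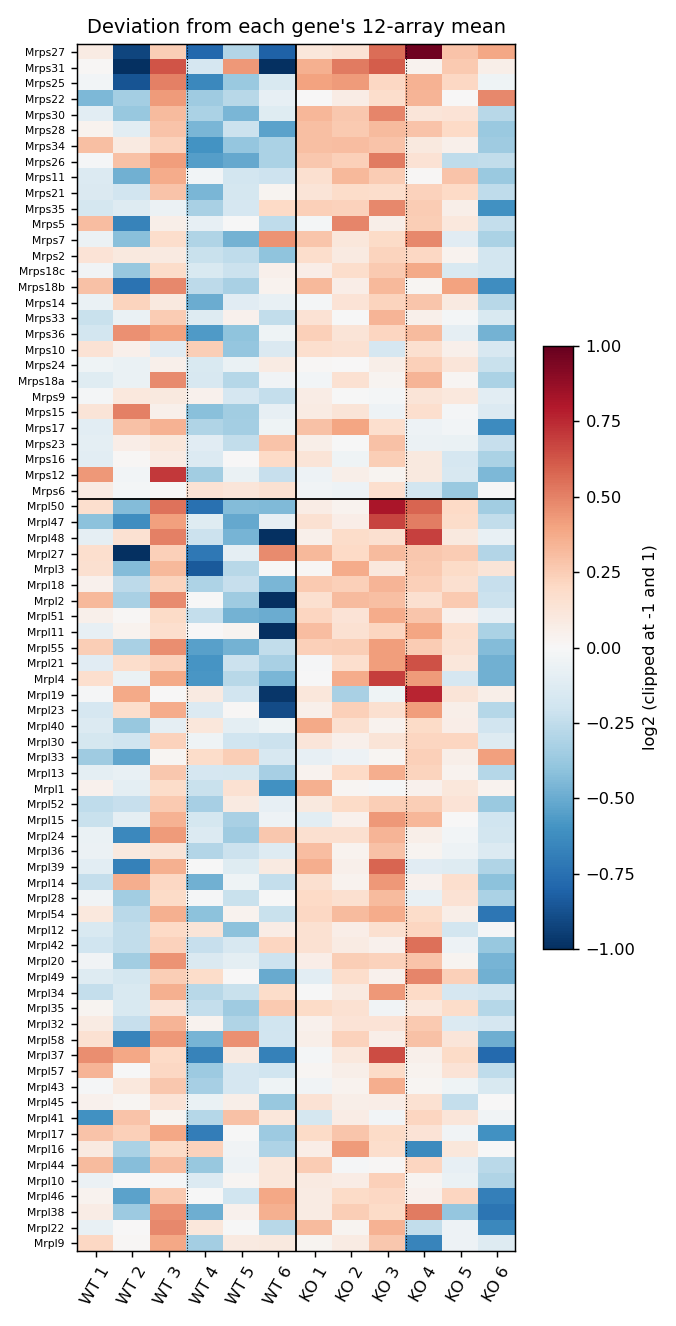
Deviation of each member from its own mean over the 12 arrays (colour: log2 units, clipped at -1 and 1; rows: genes, ordered by genotype difference within the small subunit above and the large subunit below; columns: WT, wild-type, and KO, Zbtb32-/- replicates; dotted lines separate replicates 1 to 3 from 4 to 6). Wild-type replicate 3 is red and Zbtb32-/- replicate 6 blue over most rows of both subunits.

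Without wild-type replicate 3 the difference of the member mean was 0.244, and without wild-type replicate 4 it was 0.141. The median SD of a member within a genotype was 0.277 (0.269 in the small and 0.289 in the large subunit), against 0.249 over all tested genes.

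Markers of other cells varied between the same arrays. The neutrophil list, of which 12 of 12 genes were measured, averaged 10.01 on the wild-type arrays (range 7.99 to 10.93) and 10.34 on the Zbtb32-/- arrays (range 8.95 to 12.18), although the sort was against Ly6g and CD11b. The monocyte and macrophage list (11 of 12 measured) averaged 7.57 and 7.40, the erythroid list (9 of 12) 7.09 and 7.34, the T and NK cell list (11 of 12) 6.40 and 6.13, and the B cell list (11 of 12) 8.12 and 7.90. Log2 array values have no true zero, and no marker reads as 0. In the mean of all these lists except that of B cells, Zbtb32-/- replicate 6 was highest, at 8.54, followed by wild-type replicates 4 and 5, at 8.16 and 8.12. Zbtb32-/- replicate 6 and wild-type replicate 4 also had the lowest plasma cell marker means, at 10.38 and 10.34. Wild-type replicate 2 had the lowest other-cell mean, at 6.72, and a plasma cell marker mean of 11.02. Its member mean was nevertheless low, at 8.58, the 4th lowest of the 12 arrays. How the markers relate to the members was not tested. Without the 3 arrays of highest other-cell markers the genotype difference was 0.183 for all members, 0.178 for the small and 0.186 for the large subunit. In that run 70 members were positive, among them Mrpl22, Mrpl38 and Mrps16, which were negative over all 12 arrays. The count was also 70 over all 12 arrays, so as many members turned negative as turned positive. Those that turned negative are not named here.

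**Figure D5:**
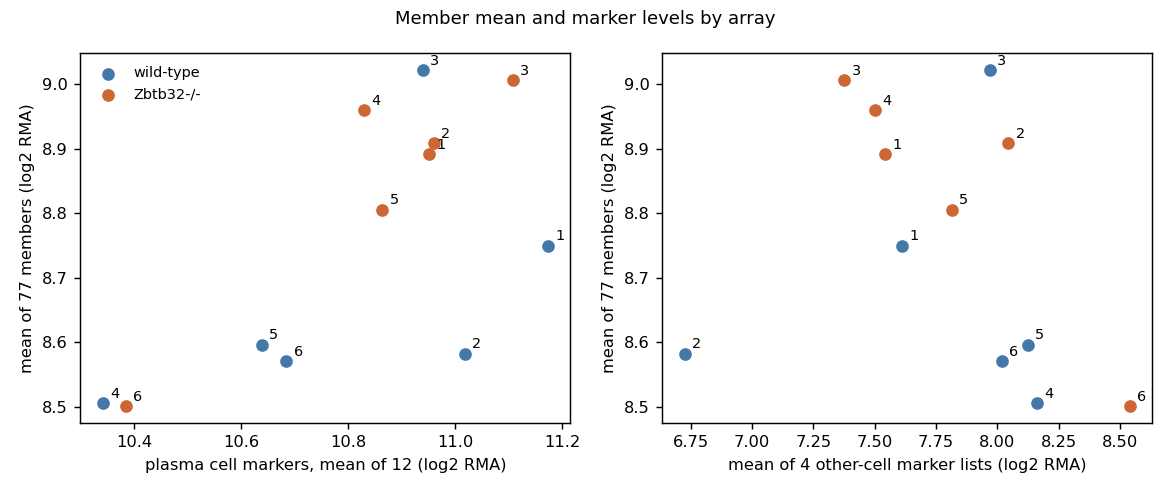
Mean of the 77 members on each array (vertical axis, log2 RMA value) against the mean of the 12 plasma cell markers (left) and against the mean of the marker lists of neutrophils, monocytes, erythroid cells and T or NK cells (right), both in log2 RMA values; blue: wild type, orange: Zbtb32-/-, numbers: replicates. Zbtb32-/- replicate 6 and wild-type replicate 4 are low in members and in plasma cell markers, and Zbtb32-/- replicate 6 is highest in the other markers. Wild-type replicate 2 is also low in members, at 8.58, but lowest in the other markers, at 6.72, with plasma cell markers at 11.02.

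Between replicates 4 to 6 and replicates 1 to 3, 2 of the 77 members fell, both of the small subunit. This split follows the replicate numbers, was noticed in these data and is no batch by the labels, and each set holds 3 arrays of each genotype. With genotype in the model (limma, Benjamini-Hochberg adjustment over all tested genes), 6.52% of all genes were called, 4.47% lower in replicates 4 to 6 and 2.05% higher, so 2 members lower, and 0 higher, lie near the background. Mrps26, a mitochondria-specific protein, had log2 values of 8.44, 8.74, 8.87, 8.72, 8.69 and 8.97 in replicates 1 to 3 of wild-type and then of Zbtb32-/- cells. In replicates 4 to 6 these were 7.90, 7.94, 8.13, 8.59, 8.20 and 8.20. The sets overlapped only through Zbtb32-/- replicate 4, and the difference was -0.58 (SE 0.13, adjusted p = 0.025). Mrps34, a mitochondria-specific protein mutated in an inherited form of Leigh syndrome, lay at 9.503 ± 0.084 in replicates 1 to 3 and 8.997 ± 0.269 in replicates 4 to 6 (mean and SD of 6 arrays, log2), which is -0.51 (SE 0.12, adjusted p = 0.0276).

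Of all members 73 (94.8%) had a negative difference between the sets, against 61.2% of all genes, with a median of -0.18 against -0.06. At an unadjusted p under 0.05, 21 members (27.3%) were lower, against 17.8% of all genes. That count became 11 (14.3%, against 15.2% of all genes) without wild-type replicate 3. It was 13 (16.9%, against 15.3% of all genes) when the fourth wild-type array was left out. Leaving out the sixth Zbtb32-/- array gave 12 (15.6%, against 15.3%), and leaving out the third gave 14 (18.2%, against 15.5%). With the filter at the median, which kept all 77 members, 69.2% of the genes kept had a negative difference. There 23 members (29.9%) were lower at an unadjusted p under 0.05, against 23.1% of the genes. After renewed quantile normalization 12 members (15.6%) were lower at that level, against 17.9% of all genes. Without the 3 arrays of highest other-cell markers, 6 members (7.79%) were lower at that level, against 10.5% of all genes, and 54 (70.1%) had a negative difference, against 60.3% of all genes. Mrpl37 (-0.60), Mrpl17 (-0.52), Mrpl4 (-0.51) and Mrps17 (-0.46) had differences of like size and did not pass, with adjusted p-values from 0.0567 to 0.0873. The member mean was 8.86 ± 0.17 in replicates 1 to 3 and 8.66 ± 0.19 in replicates 4 to 6, a difference of -0.20 (SE 0.09), and it was -0.21 (SE 0.09) in the small and -0.20 (SE 0.09) in the large subunit. The contrast of the subunits moved by -0.0081 (SE 0.025).

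The 12 plasma cell markers were all lower in replicates 4 to 6 as well, with a median of -0.38, and 3 of them (Xbp1, Prdm1 and Derl3) passed. All 12 neutrophil markers and all 11 monocyte and macrophage markers were higher there, with medians of 1.17 and 0.75. So were 9 of 11 B cell markers (median 0.64) and 7 of 9 tested T and NK cell markers (median 0.24), while 8 of 9 erythroid markers were lower (median -0.08). Their part in the members' difference was not tested. The 3 arrays of highest other-cell markers all belong to replicates 4 to 6. Leaving them out keeps only wild-type replicate 6 and Zbtb32-/- replicates 4 and 5 of that set. What this smaller set does to the calls was not tested. Without the 3 arrays of highest other-cell markers the difference of the member mean was -0.11 (SE 0.11), Mrps26 differed by -0.46 and Mrps34 by -0.34, and 0 members passed. No member passed either on leaving out any of wild-type replicates 3 to 5, or the third or sixth Zbtb32-/- replicate, and 1 passed without wild-type or Zbtb32-/- replicate 1.

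The genotype difference of a member was not shown to differ between the replicate sets. In the interaction test (limma) 0 members and 0 genes (0%) passed, and 2 members had an unadjusted p under 0.05, against 3.86% of all genes. One was Mrpl48, a mitochondria-specific protein, whose genotype difference was -0.06 in the set of replicates 1 to 3 and 0.79 in the other set. The second was Mrpl19, a counterpart of bacterial L19, with -0.21 and 0.68. The adjusted interaction p of both was 0.998 with limma. The genotype difference of the member mean was 0.15 (SE 0.13) in replicates 1 to 3 and 0.20 (SE 0.14) in replicates 4 to 6.

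Other genes of mitochondrial translation are given from lists chosen by function, and 0 of them passed between the genotypes. Of the ribosomal subunits with other names, 4 of 5 were measured and all 4 had positive differences, with a median of 0.18. Chchd1, a small-subunit protein, differed by 0.31 (SE 0.14) and Gadd45gip1, a large-subunit protein, by 0.23 (SE 0.13). Among 15 tested translation factors 13 were positive, with a median of 0.32, and 4 had an unadjusted p under 0.05. They were Mtrf1, a release factor homologue (0.54, SE 0.19), Mrrf, the ribosome recycling factor (0.65, SE 0.25), Tufm, the elongation factor that brings in charged tRNA (0.41, SE 0.16), and Mtif2, the initiation factor (0.51, SE 0.23). The last 2 are named beyond the naming rule, to complete that count.

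Among 23 factors of ribosome assembly and ribosomal RNA modification 14 were positive, with a median of 0.0086, close to the 0.012 of all genes. The smallest p-values were those of Mtg2, a GTPase of the large subunit (0.20, SE 0.13), and Mterf4, a partner of an rRNA methyltransferase (0.19, SE 0.12). Of 19 genes in the mitochondrial tRNA synthetase list 12 were positive, with a median of 0.06. This list also holds Gatb, Gatc and Qrsl1, which are not synthetases. Lars2 and Sars2, which charge leucine and serine tRNAs, differed by 0.28 (SE 0.09) and 0.37 (SE 0.17). Of 15 genes of mitochondrial DNA transcription, replication and RNA processing 11 were positive, with a median of 0.06. Pnpt1, an RNA-degrading phosphorylase, and Trmt10c, a subunit of mitochondrial RNase P, differed by 0.42 (SE 0.24) and 0.23 (SE 0.14).

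Of the 9 nuclear regulators listed, 8 were tested and 6 were positive, with a median of 0.13. Gabpb1, the beta subunit of GABP, differed by 0.57 (SE 0.19, unadjusted p = 0.0104, adjusted p = 0.933 with limma) and Myc by 0.50 (SE 0.25). Of the genes of mitochondrial DNA itself, COX2, a subunit of cytochrome oxidase, and ND3, a subunit of complex I, had a single-gene probe set. They differed between the genotypes by -0.15 (SE 0.14) and 0.14 (SE 0.34).

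Zbtb32 itself had log2 values of 6.67 ± 0.16 in wild-type and 6.56 ± 0.10 in Zbtb32-/- cells, a difference of -0.11 (95% interval -0.31 to 0.09). Which exons the deletion removes is not stated in the labels, so these values cannot check the genotype.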

How the data were processed

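Total RNA of the sorted cells was amplified, labelled with biotin and put on 1 Affymetrix mouse gene array per sample, per the labels' protocols. The authors deposited log2 values per probe set, computed by RMA in the Affymetrix Expression Console according to the submitters' processing notes, which give no versions. RMA makes the distributions of the arrays alike, compresses low values and hides differences in total RNA. Array medians lay between 6.28 and 6.43, and precision is limited by the number of arrays, with a median of 0.345 log2 units on each side of a member's difference for its 95% interval.

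Of 35556 probe sets, 21789 name 1 gene in the platform annotation, 1621 several, and 12146 are unnamed here. Entrez identifiers of 21698 were found in the RefSeq table of GRCm38.p6, with 0 symbols changed. Genes whose mean did not exceed the 25th percentile of single-gene probe sets, 5.49, were left out. All 14993 remaining genes went through lmFit and eBayes with a trend in limma 3.58.1 (R 4.3.3), with Benjamini-Hochberg adjustment, and the script was tested on simulated data. Means over members were computed per array and have no p. Other tools were Python 3.11.15, pandas 2.3.3 for tables and matplotlib 3.10.9 for plots. The members, gene lists, tests and alternatives were chosen with earlier results of these data known, and leaving out the 3 arrays with the highest other-cell markers was added after these data were seen.

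The text names, in each subunit, the 5 positive and 3 negative members of smallest p by genotype, the 3 widest differences between replicate sets and the 2 largest SDs within a genotype, then the 2 smallest interaction p-values, the S18 paralogues, Zbtb32 and the 2 genes of smallest p in each other list. The alternatives tried were a further quantile normalization, centring on array medians, no filter or one at the median, averaging the probe sets of a gene, eBayes without a trend or robust, array weights, replicate number or replicate set in the model, each replicate set alone, subunits assigned by structure and leaving out each array. Protein sequences were not used here.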

Additional observations from a re-analysis of the deposited data

Results flagged for a closer look

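The 6 arrays of each genotype were examined for the 30 named members, Zbtb32 and the 4 summary values over members (3 means and the contrast of the subunits), 70 groups in all. In 7 of them, each of a named member, 1 array stood apart from the other 5 by Dixon's criterion. Chance meets it in about 1 of 20 groups that are independent and not selected, but these genes share the arrays, and Mrpl2 and Mrpl27 were named for their spread, so that rate does not apply here. Of these, 5 concern Zbtb32-/- replicate 6, the array with the lowest member mean and the highest mean over markers of other cells. It was low in Mrps28 at 8.76 (the others at 9.33 to 9.44), in Mrpl17 at 7.36 (7.93 to 8.24), in Mrpl18 at 8.98 (9.37 to 9.56), in Mrpl2 at 8.93 (9.31 to 9.47) and in Mrpl27 at 9.16 (9.66 to 9.78), all in log2 units. Whether the other-cell signal has a part in these values was not tested. Zbtb32-/- replicate 4 was high in Mrpl48, at 9.88 against 9.12 to 9.38 in the others. Wild-type replicate 3 was high in Mrps18a, at 9.15 against 8.40 to 8.65.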

How the results depend on the processing

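The genotype difference of the member mean and of each subunit mean stayed positive under every alternative run. For the member mean it was 0.125 after renewed quantile normalization, 0.199 after median centring and 0.141 to 0.244 on leaving out single arrays, and the number of positive members ran from 63 without wild-type replicate 4 to 74 without Zbtb32-/- replicate 6. The subunit contrast was 0.0095 to 0.039 on leaving out single arrays and -0.0084 without the 3 arrays of highest other-cell markers. No member passed between the genotypes under any alternative, with a smallest adjusted p from 0.522 (without wild-type replicate 3) to 1.00 (without wild-type replicate 6), and 1 other gene was called lower in replicates 4 to 6 alone. By the labels, same-numbered arrays of the genotypes share only a number. Their deviations correlated from 0.019 to 0.47, and 4 of 12 arrays correlated best with their own number. These values do not settle whether the arrays were paired. With the replicate number as a block, 0 genes and 0 members passed. A positive difference at an unadjusted p under 0.05 was found in 10 members and in 645 of the 14993 tested genes. The member mean differed by 0.17, with an SE of 0.08 with the block and 0.11 without it. The SE of the subunit contrast was 0.013 with the block and 0.024 without it.

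Between the replicate sets, 307 genes were higher and 670 lower. The higher count was 813 with no filter, 168 with the filter at the median, 8 without the 3 arrays and 80 to 421 on leaving out single arrays. The lower count was 1015 after median centring, 4 without the 3 arrays and 160 to 843 on leaving out single arrays. The 2 members called lower became 5 after median centring, 4 with the filter at the median, 4 without a variance trend, 0 without the 3 arrays and 0 to 5 on leaving out single arrays. The causes were not tested.

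Signs of genotype differences turned in several of the 30 named members and in Zbtb32, Mrpl48 (0.37) having the widest of these differences over all arrays. In replicates 1 to 3 alone these were Mrpl17 (-0.0843), Mrpl19 (-0.21), Mrpl22 (0.0932), Mrpl37 (-0.11), Mrpl38 (0.12), Mrpl48 (-0.0565), Mrps6 (0.00655), Mrps16 (0.11), Mrps18a (-0.0440) and Zbtb32 (0.0207), and in replicates 4 to 6 alone Mrps12 (0.0448) and Mrps17 (-0.0107). Members that are not named turned too and are not listed, among them Mrps15 (-0.18 in replicates 1 to 3) and Mrpl46 (-0.20 in replicates 4 to 6). Mrps17 was also at -0.0177 after renewed quantile normalization, and Mrps16 at 0.00677 after median centring. Array weights gave 0.0437 for Mrpl22 and 0.0349 for Mrps16. Without the 3 arrays the values were 0.0449 for Mrpl22, 0.000607 for Mrpl38 and 0.00509 for Mrps16. On leaving out single arrays the differences ran from -0.0839 to 0.18 for Mrpl17, -0.16 to 0.0381 for Mrpl22, -0.0605 to 0.23 for Mrpl37, -0.13 to 0.12 for Mrpl38, -0.0688 to 0.0428 for Mrps16 and -0.0258 to 0.18 for Mrps17.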

Other observations

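The 2 measured transcripts of mitochondrial DNA and most nuclear genes of the mitochondrial ribosome lay on opposite sides between the replicate sets. COX2 and ND3, the 2 genes of mitochondrial DNA with a single-gene probe set, were higher in replicates 4 to 6 than in replicates 1 to 3. The differences were 0.38 (adjusted p = 0.044 with limma) and 0.94 (adjusted p = 0.034). Negative differences were found in 73 of the 77 ribosomal protein genes (94.8%), against 61.2% of all genes and 69.2% of those above the median signal. Without the 3 arrays of highest other-cell markers they were found in 54 of 77 (70.1%), against 60.3%. The values of COX2 and ND3 in that run are not given here. All 15 tested translation factors also had negative differences, as had all 15 tested genes of mitochondrial DNA transcription, replication and RNA processing. Their medians were -0.27 and -0.25 (log2), with 0 and 1 of them past the threshold. So had 21 of 23 assembly factors and 17 of 19 genes of the tRNA synthetase list, with medians of -0.20 and -0.34. The split was noticed in these data and is not a labelled batch.

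Mrpl33 was the widest of the 4 members with a positive difference between the replicate sets, at 0.32 (adjusted p = 0.124). It is named here after its value was seen.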
